A study of Rattus norvegicus with 6 samples.

Results

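The genes described here encode 35 proteins of mitochondrial and peroxisomal fatty acid oxidation. They were taken by name, and every non-control probe whose accession belongs to a member gene was read: 53 of 61537 non-control probes, for 35 of the 15645 genes the array could name. By the step they serve, 22 members were counted as mitochondrial, 11 as peroxisomal and 2 as serving both organelles. All 53 probes were well above background on all 6 arrays, so no member entered through 1 group only.

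Male Sprague-Dawley rats, bought at 5 weeks of age, were studied in 2 groups of 3 animals. Controls received corn oil for 4 weeks. Treated animals received 4-hydroxy-m-phenylenediammonium dichloride, an aromatic diamine salt, at 100 mg/kg/day for 4 weeks (the labels name no vehicle for this group). Total RNA of the renal cortex of each animal was read on 1 Cy3 array, and the comparison asks which transcripts differ in the cortex of dosed animals.

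Fatty acid oxidation shortens acyl-CoA chains by repeated dehydrogenation, hydration, second dehydrogenation and thiolysis. Mitochondria take long chains in through the carnitine shuttle and pass the electrons to the respiratory chain, while peroxisomes handle very long, branched and unusual chains and pass shortened products on. The proximal tubule, which makes up most of the renal cortex, is known for drawing much of its energy from this pathway, and PPAR alpha is a well known activator of many of its genes.

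Levels are log2 processed signal minus the 75th percentile of the array over its non-control probes, and a difference is the treated mean minus the control mean on that scale. Each level can be compared between animals for the same gene only, because probes differ in brightness. Between 63.1% and 69.6% of non-control probes were well above background on an array. Each group had a slide and a scan of its own, so that treatment, slide and scan cannot be told apart for any member. After the same scaling, 8 spike-in transcripts added in fixed amounts differed by a median of -0.14 (from -0.19 to -0.066), and the part of such an offset in the differences below was not tested. The number of arrays limits the precision, and in bulk tissue fewer cells of a type and less RNA per cell cannot be told apart.

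Most fatty acid oxidation genes had a lower mean in treated cortex, by small amounts, and none passed the test. The mean was lower for 30 of 35 members and higher for 5, where 56.5% of all 12130 genes tested had a lower and 43.5% a higher mean. Bright genes had lower means more often, and of 2251 genes in the signal range of the members (their 10th to 90th percentile) 72.2% did. Differences ran from -0.60 for Ehhadh to 0.44 for Acaa1a, with a median of -0.24 over the members and -0.030 over all genes tested. With limma, 0 members had an adjusted p under 0.05 in either direction, where 4.36% of all genes passed, 1.33% as lower and 3.03% as higher. At an unadjusted p under 0.05, 13 members were lower, where 13.2% of all genes and 20.2% of the genes in that signal range were, and 2 were higher, where 11.8% were. With a normexp background 2 members passed, Crat and Hadhb (adjusted p = 0.0448 and 0.0460), and with an intensity trend in the variance prior 1 passed, Hadhb (adjusted p = 0.0451).

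In 17 members every treated value lay below every control value, and in 2 every treated value lay above. Over all genes tested, 18.7% lay wholly below and 14.1% wholly above. Of the genes in the signal range of the members, 31.1% lay wholly below, with a median difference of -0.080. The count is sensitive to scaling, and under quantile normalization 8 of 35 members (22.9%) lay wholly below, beside 20.4% of the genes in that signal range. Quantile normalization also took the median over the members from -0.24 to -0.15.

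**Figure D1:**
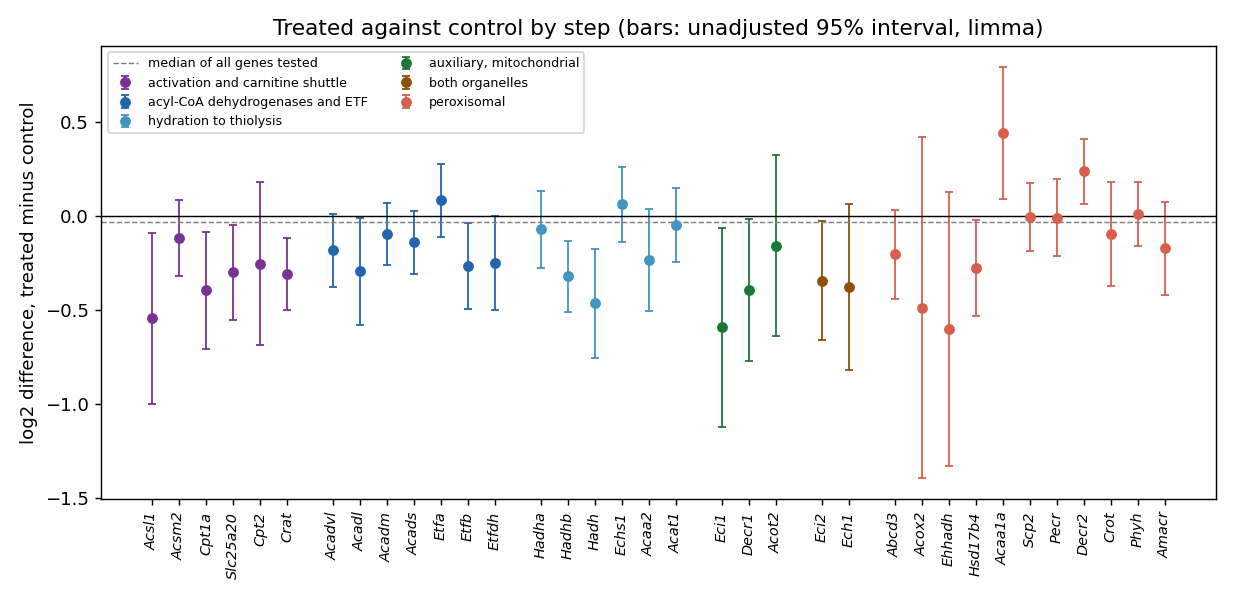
Log2 difference between treated and control animals (y axis, treated minus control) for each member, grouped by step, with the unadjusted 95% interval from limma (n = 3 animals per group) and the median of all genes tested as a dashed line. Mitochondrial members lie mostly below 0, while Acaa1a (0.44) and Decr2 (0.24) of the peroxisomal group lie above it.

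Before oxidation, fatty acids are joined to coenzyme A and carried through the mitochondrial membranes as carnitine esters. All 6 members of these steps had a lower mean in treated animals, with a median difference of -0.30. In 4 of them the groups did not overlap. Of the genes in the members' signal range, 72.2% had a lower mean and 31.1% lay wholly below the controls. Acsl1, the long-chain acyl-CoA synthetase, had levels of 5.74, 5.33 and 5.65 in controls and 5.17, 5.23 and 4.68 in treated animals. Every treated animal was below every control, and treated replicate 3 was lowest by a wide margin. The difference was 1.46-fold (log2 -0.54, SE 0.18, limma adjusted p = 0.145), and it was -0.37 without treated replicate 3.

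Cpt1a, the carnitine palmitoyltransferase that controls entry of long chains, stood at 3.02, 3.14 and 3.31 in controls and at 2.56, 2.76 and 2.96 in treated animals. Here treated replicate 1 was lowest, and the groups did not overlap (difference -0.40, SE 0.13, adjusted p = 0.132). Slc25a20, the carnitine-acylcarnitine translocase of the inner membrane, read 3.36, 3.23 and 3.28 in controls against 3.09, 3.10 and 2.79 in treated animals. Its treated values were again all below the controls (difference -0.30, SE 0.10, adjusted p = 0.147).

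Crat, carnitine acetyltransferase, which also occurs in peroxisomes, had 6.47, 6.33 and 6.33 in controls and 6.17, 6.07 and 5.97 in treated animals. The groups did not overlap, and the 1.24-fold difference (log2 -0.31, SE 0.08) had the smallest adjusted p of these 6 members, 0.0830. Cpt2, which returns the chain to coenzyme A inside the mitochondrion, differed by -0.25 (SE 0.17), but treated replicate 3 alone was low at 3.05 while the other two, at 3.58 and 3.63, lay among the controls. Without that animal the difference of Cpt2 was -0.069. Acsm2, a medium-chain acyl-CoA synthetase with close relatives in its family, differed by -0.12 (SE 0.08, adjusted p = 0.423), with overlapping groups.

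The first oxidation step is made by acyl-CoA dehydrogenases of different chain length, whose electrons pass through the electron transfer flavoprotein (Etfa and Etfb) and its dehydrogenase (Etfdh). Of these 7 members, 6 had a lower mean, 5 had groups that did not overlap, and the median difference was -0.18. Beside this, 72.2% of the genes in the members' signal range had a lower mean and 31.1% lay wholly below the controls. Over all 22 mitochondrial members, 13 lay wholly below, and 8 did under quantile normalization. Among the dehydrogenases, the long-chain enzyme Acadl read 6.52, 6.37 and 6.29 in controls and 6.23, 6.18 and 5.88 in treated animals (difference -0.29, SE 0.12, adjusted p = 0.189). The very-long-chain enzyme Acadvl, the short-chain Acads and the medium-chain Acadm differed by -0.18, -0.14 and -0.097, and Acadm had overlapping groups. Differences in this family were small for every chain length measured.

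The 2 subunits of the flavoprotein had means of opposite direction. Etfb had levels of 6.57, 6.50 and 6.27 in controls and 6.13, 6.22 and 6.19 in treated animals, without overlap (difference -0.27, SE 0.09, adjusted p = 0.154). Etfa, its partner, had a difference of 0.082 (SE 0.08, adjusted p = 0.556) with overlapping groups, and the contrast between them was not tested. Etfdh, which hands the electrons to ubiquinone, stood at 3.33, 3.21 and 3.23 in controls and at 3.15, 3.06 and 2.82 in treated animals (difference -0.25, SE 0.10, adjusted p = 0.197), with every treated value below the controls.

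The later steps of the mitochondrial spiral, from hydration to thiolysis, held the 2 members with the smallest p-values. Hadhb, the thiolase subunit of the trifunctional protein, had 3.00, 2.86 and 2.86 in controls and 2.69, 2.57 and 2.50 in treated animals. The groups were clearly apart, and the 1.25-fold difference (log2 -0.32, SE 0.08) had the smallest adjusted p of all members, 0.0715. Hadh, the hydroxyacyl-CoA dehydrogenase for medium and short chains, read 7.62, 7.43 and 7.73 in controls and 7.30, 7.11 and 6.98 in treated animals, a 1.38-fold difference (log2 -0.46, SE 0.12, adjusted p = 0.0828). Both of its probes differed by about the same amount, -0.46 and -0.45.

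Acaa2, the mitochondrial thiolase for medium chains, had levels of 6.12, 6.03 and 5.82 in controls and 5.88, 5.61 and 5.77 in treated animals. Treated replicate 1 lay above control replicate 3, so the groups overlapped (difference -0.24, SE 0.11, adjusted p = 0.251). Acat1, the acetoacetyl-CoA thiolase, gave 4.64, 4.50 and 4.58 in controls and 4.53, 4.64 and 4.41 in treated animals (difference -0.048, SE 0.08). Its second probe differed by 0.050, so no direction can be given. Echs1, the short-chain hydratase, had a difference of 0.061 (SE 0.08, adjusted p = 0.675), which turned to -0.059 with a normexp background.

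Hadha, the partner of Hadhb in the trifunctional protein, depended on the probe. Its brightest probe read 3.25, 3.16 and 3.31 in controls and 3.30, 3.15 and 3.06 in treated animals, a difference of -0.071 (SE 0.08, adjusted p = 0.633). Its second probe read 2.72, 2.70 and 2.87 in controls and 2.35, 2.32 and 2.22 in treated animals, without overlap. In a limma fit over all 40988 kept probes, of which 6.72% passed, this probe fell by 0.47 (adjusted p = 0.0265) and was the only member probe to pass. The third and dimmest probe of Hadha differed by -0.029.

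**Figure D2:**
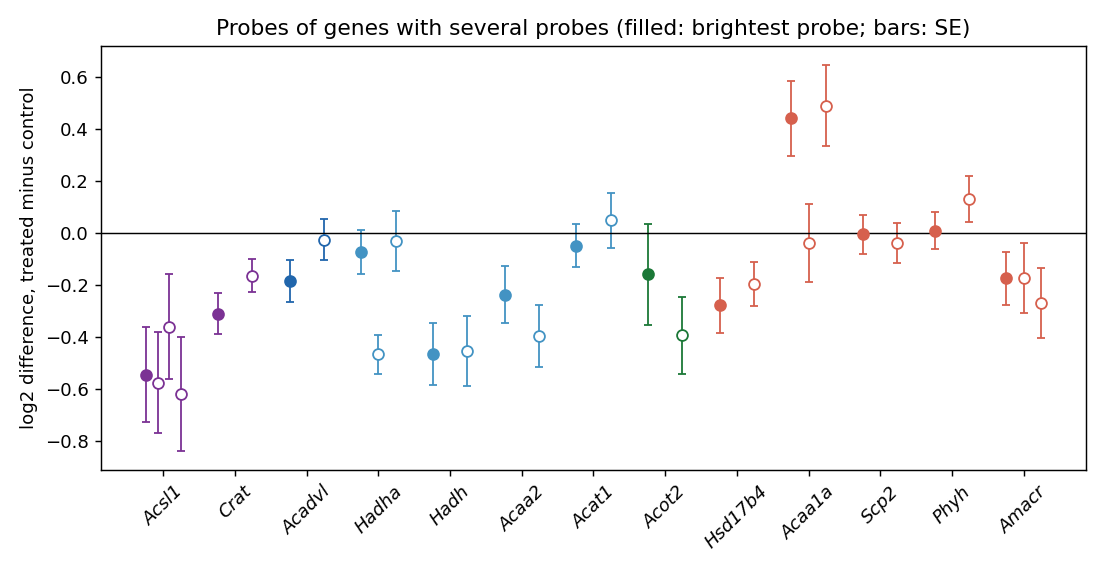
Log2 difference between treated and control animals (y axis) for each probe of the 13 members with several probes (x axis), with the standard error from a limma fit over all kept probes; filled points mark the brightest probe of a gene. Acsl1, Hadh and Amacr are among the genes with all their probes on the lower side. So is Hadha, whose probes spread from -0.47 to -0.029, while those of Acaa1a run from -0.038 to 0.49.

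Of the 13 members with several probes, 11 had probes of the same sign, and Acaa1a and Acat1 had both signs. Acsl1 had 4 probes, with differences from -0.62 to -0.36. Over all 53 member probes, 45 had a lower mean in treated animals. The other 22 members rest on 1 probe each.

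Chains with double bonds need auxiliary enzymes, and some of the larger differences were found there. Eci1, the mitochondrial enoyl-CoA isomerase, had levels of 6.42, 6.19 and 6.45 in controls and 5.88, 6.10 and 5.30 in treated animals. All treated values were lower, but they spanned 0.798 against 0.256 in controls, and the 1.51-fold difference (log2 -0.59, SE 0.21, adjusted p = 0.165) shrank to -0.36 without treated replicate 3. Decr1, the mitochondrial dienoyl-CoA reductase, read 5.83, 5.69 and 5.84 in controls and 5.62, 5.49 and 5.07 in treated animals (difference -0.39, SE 0.15, adjusted p = 0.185; -0.23 without treated replicate 3). The groups of Decr1 did not overlap, and the low value was again that of replicate 3.

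Acot2, a mitochondrial thioesterase that releases free fatty acid from coenzyme A, stood at 3.95, 3.76 and 4.00 in controls and at 3.95, 3.98 and 3.32 in treated animals. Only treated replicate 3 was low, and without it the difference of -0.16 (SE 0.19) turned to 0.056. Its dimmer probe differed by -0.39 without overlap. Acot2 has near relatives in its family, so its values are uncertain to that extent.

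The isomerases that serve both organelles had every treated value below every control, though under quantile normalization the groups of both genes overlapped. Eci2 had 4.89, 4.95 and 4.84 in controls and 4.81, 4.51 and 4.33 in treated animals (difference -0.34, SE 0.13, adjusted p = 0.176). Ech1, the dienoyl-CoA isomerase, read 5.05, 4.82 and 5.11 in controls and 4.81, 4.80 and 4.24 in treated animals (difference -0.38, SE 0.18, adjusted p = 0.255). Treated replicates 1 and 2 of Ech1 lay just under the lowest control, and its difference was -0.19 without treated replicate 3.

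**Figure D3:**
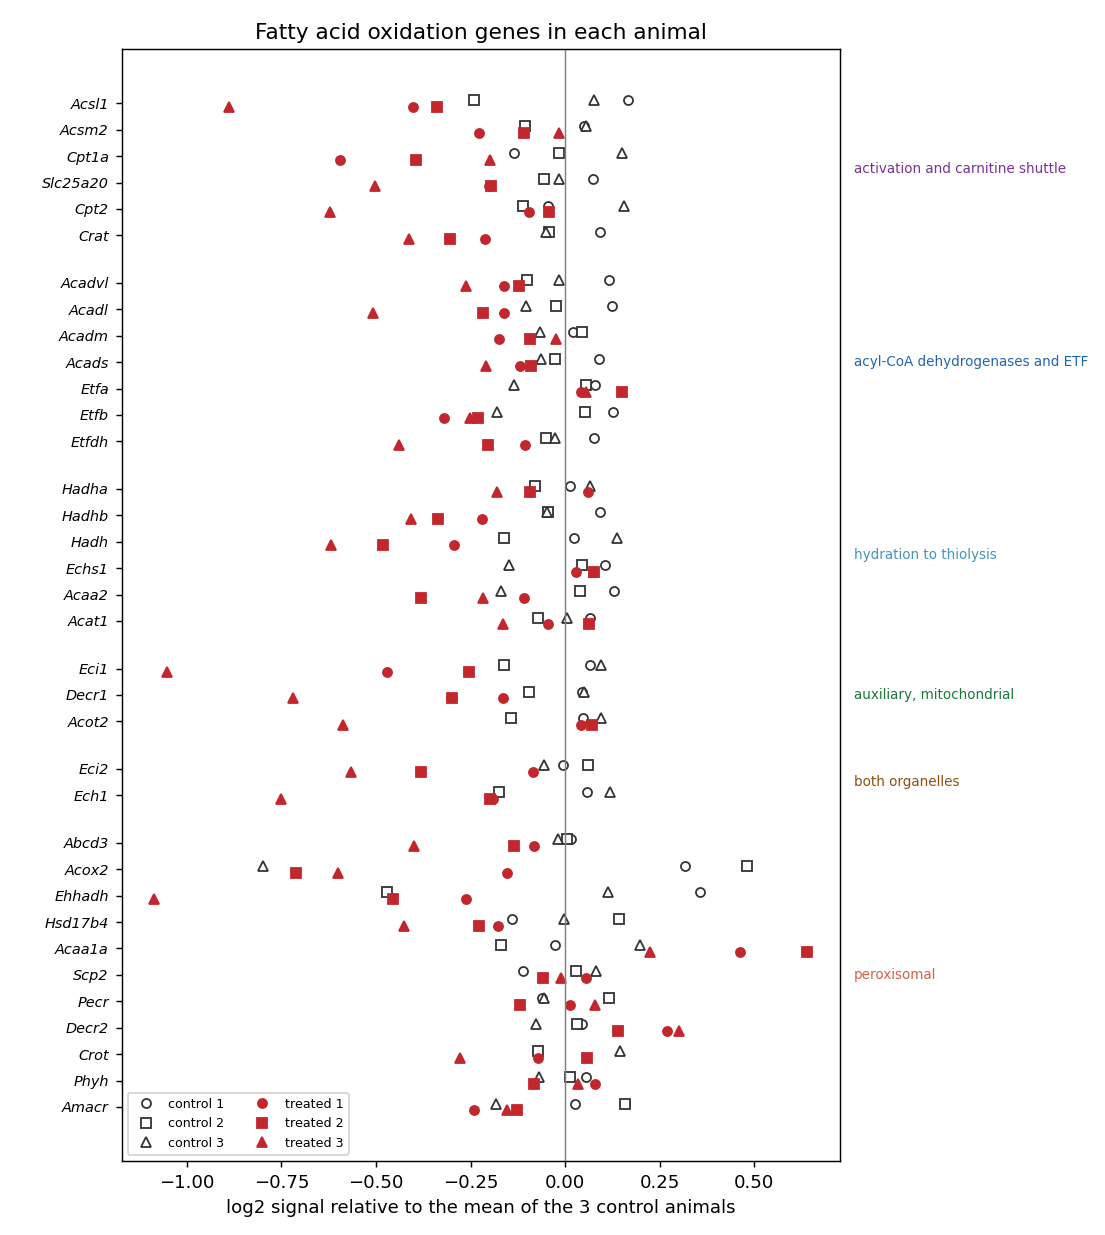
Level of each member in each of the 6 animals (x axis, log2 signal relative to the mean of the 3 controls; genes on the y axis by step); open symbols are controls, red symbols are treated animals, and the shape gives the replicate number. Treated replicate 3 is the lowest of the 6 animals for 21 of 35 members, and Eci1 (treated replicate 3 at 5.30 against a control mean of 6.36) is among the widest gaps.

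Peroxisomal members showed no common direction. Of 11, 8 had a lower mean and 3 a higher mean, and 2 lay wholly below the controls and 2 wholly above. In the members' signal range, 72.2% of genes had a lower mean, 31.1% lay wholly below and 7.37% wholly above. The median difference of the peroxisomal members was -0.096. That median moved to -0.19 with a normexp background, to -0.17 without treated replicate 2, to -0.053 without treated replicate 3 and to -0.036 without control replicate 3. At the probes used, Acaa1a and Decr2 had the highest means relative to controls of all members.

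Acaa1a, the peroxisomal thiolase, read 6.45, 6.30 and 6.67 in controls and 6.94, 7.11 and 6.70 in treated animals. All treated values were higher, treated replicate 3 only just so, and the 1.36-fold difference (log2 0.44, SE 0.14) did not pass (adjusted p = 0.133). Of its other probes, one differed by 0.49 and was likewise without overlap. The other, at 6.68, 6.34 and 6.82 in controls and 6.48, 6.76 and 6.48 in treated animals, differed by -0.038. In controls this last probe was the brighter one, with a mean of 6.61 against 6.47 for the probe used. The treated values thus decided which probe stood for Acaa1a, and its difference depends on the probe. Acaa1b, a closely related thiolase gene that is no member, had differences of 0.48, 0.51 and 0.54 at its 3 probes (adjusted p = 0.143 at the brightest), and signal of these near-identical genes may be shared between probes.

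Decr2, the peroxisomal dienoyl-CoA reductase, had 3.27, 3.26 and 3.15 in controls and 3.50, 3.37 and 3.53 in treated animals, with no overlap (1.18-fold higher, log2 0.24, SE 0.07, adjusted p = 0.114). Its mitochondrial counterpart Decr1 had a lower mean, as given above, and the difference between these genes was not tested. Hsd17b4, the peroxisomal D-bifunctional enzyme that makes the hydration and dehydrogenation steps, stood at 6.10, 6.38 and 6.24 in controls and at 6.06, 6.01 and 5.82 in treated animals (difference -0.28, SE 0.10, adjusted p = 0.176). Treated values were all below the controls, with treated replicate 1 close to control replicate 1.

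Ehhadh, the peroxisomal L-bifunctional enzyme, varied widely within both groups. Its levels were 3.45, 2.63 and 3.21 in controls and 2.83, 2.64 and 2.01 in treated animals, and the groups overlapped. The difference was the largest in size of all members (log2 -0.60, SE 0.29, 1.52-fold) and did not pass (adjusted p = 0.271), being -0.36 without treated replicate 3 and -0.84 without control replicate 2. Acox2, a branched-chain acyl-CoA oxidase and the dimmest member, differed by -0.49 (SE 0.37, adjusted p = 0.453), with controls from -3.80 to -2.52.

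The remaining peroxisomal members differed little. Abcd3, the transporter that takes acyl-CoA into the peroxisome, read 6.30, 6.29 and 6.27 in controls and 6.21, 6.15 and 5.89 in treated animals, without overlap (difference -0.20, SE 0.09, adjusted p = 0.250). Amacr, a racemase for branched chains that also occurs in mitochondria, and Crot, which exports shortened chains as carnitine esters, differed by -0.17 and -0.096. Scp2, a sterol carrier and thiolase, Pecr, an enoyl-CoA reductase, and Phyh, the hydroxylase of phytanic acid oxidation, differed by -0.0042, -0.0088 and 0.011, each less than its standard error.

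The groups of mitochondrial and peroxisomal members were then set side by side in each animal, as the mean over genes of the level relative to the control mean. Mitochondrial members averaged 0.065, -0.059 and -0.0059 in controls and -0.18, -0.17 and -0.37 in treated animals. Every treated animal lay below every control, and treated replicate 3 was lowest. By the same measure the 2251 genes in the members' signal range were also without overlap. They averaged 0.012, 0.0078 and -0.020 in controls and -0.094, -0.074 and -0.053 in treated animals. Peroxisomal members averaged 0.036, 0.024 and -0.060 in controls and -0.0093, -0.097 and -0.21 in treated animals, with treated replicate 1 among the controls.

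The mitochondrial mean minus the peroxisomal mean was 0.029, -0.083 and 0.054 in controls and -0.17, -0.076 and -0.16 in treated animals. Treated replicate 2 lay above control replicate 2, so the groups overlapped on this contrast, and the mean difference was -0.13 (control SD 0.073, treated SD 0.051, n = 3 each). No test was made of it, since it is a score over chosen genes. In counts, 13 of 22 mitochondrial members lay wholly below the controls (59.1%), and 2 of 11 peroxisomal members did (18.2%), beside 18.7% of all genes tested and 31.1% of the genes in the members' signal range. Under quantile normalization these counts were 8 of 22 (36.4%) and 0 of 11, beside 20.4% of the genes in that signal range.

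**Figure D4:**
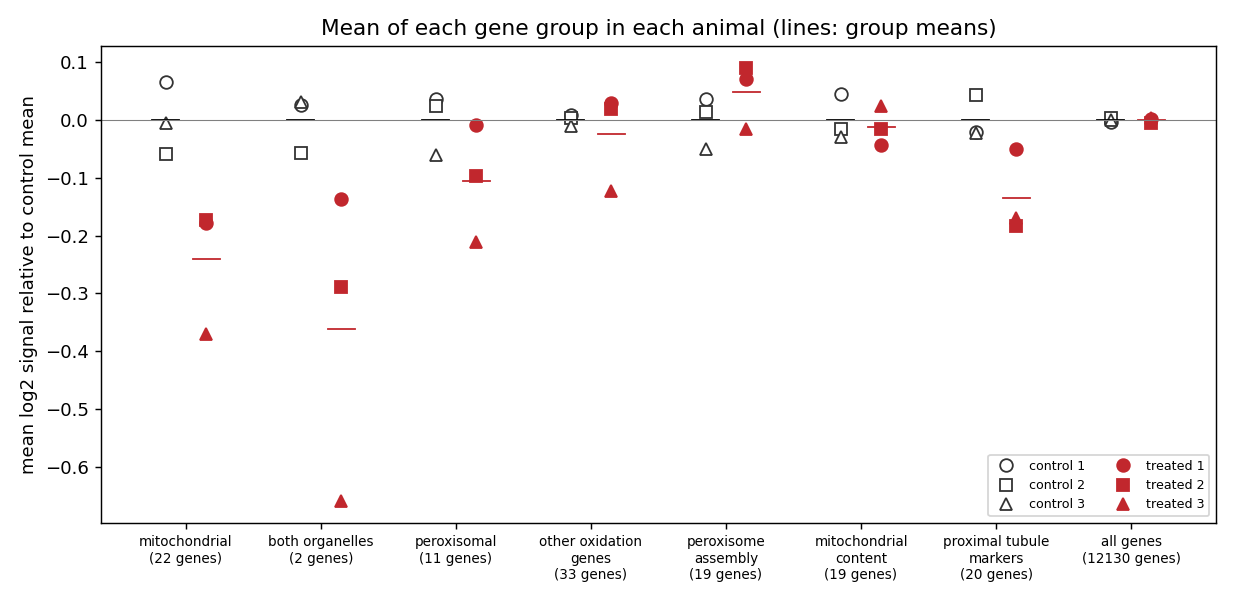
Mean over the genes of each group of the log2 level relative to the control mean (y axis), for each of the 6 animals, with horizontal lines at the group means (n = 3 animals each). Mitochondrial members are between -0.37 and -0.17 in treated animals, peroxisomal members between -0.21 and -0.0093, and mitochondrial content genes between -0.043 and 0.024.

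Over the members, animals of the treated group were not alike. Over all genes tested they were not less alike than controls, with r of 0.993 to 0.994 within the treated group and 0.990 to 0.991 within controls. The counts that follow were not made over all genes. Treated replicate 3 was the lowest treated animal for 22 of 35 members, 15 of 22 mitochondrial and 5 of 11 peroxisomal, and values spread more widely among treated than among control animals for 24 members. Leaving out this animal took the median difference over the members from -0.24 to -0.17. The number of members that were lower at an unadjusted p under 0.05, 13 in the full data, was 8 without treated replicate 3 or control replicate 3, 6 without treated replicate 2 and 5 without control replicate 1.

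The starts of the member genes were searched for letters that nuclear receptors of this pathway are known to bind, because the members' means shifted mostly the same way. RefSeq promoter sequences of build GRCr8 (250 bases before to 50 after the start) were at hand for 31 of 35 members, and both strands were read. PPAR alpha with its partner RXR binds a direct repeat of the half-site AGGTCA with 1 base between, and estrogen-related receptors bind TCAAGGTCA, which contains the half-site. The direct repeat of AGGTCA was found in 0 of 31 member windows and in 0.0538% of all 33469 windows, its looser form, with any base at the fourth place of each half-site, in 0 and 0.415%, and TCAAGGTCA in 0 and 0.433%. With shares this low over all windows, 0 hits in 31 windows cannot set the members apart. Sites outside the windows were not searched. The single half-site was found in 7 of 31 member windows (22.6%) and in 16.2% of all windows, in 4 of 19 mitochondrial and 2 of 11 peroxisomal ones.

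Windows are shown here for members with the half-site upstream of the start, chosen to set members with a lower mean beside a member without; capitals mark the half-site or its reverse complement, and each runs 5′ to 3′ on the gene's strand. The window of Eci1 is chr10:13961111-13961206 on the plus strand, with the half-site from position -94, and that of Acadvl is chr10:55236824-55236919 on the minus strand, from position -169; the promoter of Acadvl holds a second half-site from position -17, which is not shown. The window of Echs1 is chr1:204333549-204333644 on the minus strand, from position -93.
Eci1: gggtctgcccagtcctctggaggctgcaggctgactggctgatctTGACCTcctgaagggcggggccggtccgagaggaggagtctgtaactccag
Acadvl: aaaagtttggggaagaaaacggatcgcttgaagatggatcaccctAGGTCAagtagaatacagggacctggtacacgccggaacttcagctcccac
Echs1: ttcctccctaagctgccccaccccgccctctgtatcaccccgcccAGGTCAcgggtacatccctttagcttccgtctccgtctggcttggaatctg
Beside these sequences stand differences of -0.59 for Eci1, -0.18 for Acadvl and 0.061 for Echs1. The half-site occurred both in members with a lower mean and in 1 with a slightly higher mean, and a match of letters is a description only.

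Other genes of the pathway had a median closer to 0. Of 33 further fatty acid oxidation genes tested, limma called 0 lower at an adjusted p under 0.05, with 4 lower under an unadjusted p of 0.05. The mean was lower for 23 of them, and the median difference was -0.077.

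Among 19 genes of peroxisome assembly and membrane, 1 was called higher and 1 lower, with a median of -0.033. Pxmp2, a channel protein of the peroxisomal membrane, fell 1.26-fold from a mean of 5.02 to one of 4.69, without overlap (log2 -0.33, SE 0.06, adjusted p = 0.0465), and its other probe differed by -0.27. The call of Pxmp2 was lost when any 1 of the 6 arrays was left out (adjusted p from 0.0993 to 0.123). Without control replicate 1 or 3, or treated replicate 2 or 3, limma called 0 of all 12130 genes. Loss of a call in those fits is therefore not particular to Pxmp2 or to any other gene. Pex26, a peroxisome assembly factor, rose 2.75-fold at its brighter probe (log2 1.46, SE 0.15, adjusted p = 0.0211), from -3.93, -4.25 and -3.84 to -2.62, -2.32 and -2.69. Its other probe differed by 0.21 and did not pass in the fit over all probes (adjusted p = 0.259), so the size for Pex26 depends on the probe. Its call was lost in 5 of the 6 fits that left out 1 array (adjusted p from 0.0499 to 0.0801).

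Genes of mitochondrial content, such as import channels and maintenance factors, had a median difference of -0.020 over 19 genes. Limma called 0 of them; at an unadjusted p under 0.05, 0 were higher and 1 lower. The smallest p belonged to Lonp1, the matrix protease (difference -0.18, SE 0.07, adjusted p = 0.195), and Timm44, an import motor subunit (0.34, SE 0.14, adjusted p = 0.200). Their mean per animal, from -0.043 to 0.024 in treated animals and from -0.029 to 0.045 in controls, overlapped between groups. The means of the mitochondrial members and of the genes in the members' signal range did not overlap.

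Of 17 regulators tested, 0 were called by limma, with 2 higher and 3 lower ones under an unadjusted p of 0.05, and the median was 0.0086. Ppard, the PPAR delta receptor, had levels of -0.74, -0.57 and -1.13 in controls and -2.30, -1.72 and -1.36 in treated animals, without overlap (log2 -0.98, SE 0.27, adjusted p = 0.101). Its other probes differed by -0.61 each. Nrf1, a nuclear factor for mitochondrial genes, differed by -0.31 (SE 0.10, adjusted p = 0.130), while Ppara, the PPAR alpha receptor, and its coactivator Ppargc1a differed by 0.068 (SE 0.38) and 0.015 (SE 0.07).

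Markers of the proximal tubule were well above background for all 20 genes of the list. Of these 20, 2 were called lower and 0 higher, 16 had a lower mean, and the median difference was -0.089. The called genes were the water channel Aqp1, which fell by 0.58 on the log2 scale (adjusted p = 0.0341), and the brush border peptidase Anpep, which fell by 0.65 (adjusted p = 0.0304). Each call was lost when any 1 of the 6 arrays was left out (adjusted p from 0.0728 to 0.110 for Aqp1 and from 0.0685 to 0.0971 for Anpep). Without control replicate 1 or 3, or treated replicate 2 or 3, limma called 0 genes of all, so these losses are not particular to the 2 genes. The signals of the list summed to 3255 to 3440 times the 75th percentile in controls and to 3125 to 3187 in treated animals. Sums over all genes tested, 111027 to 113260 in controls and 104387 to 109378 in treated animals, were likewise lower without overlap. Per animal, the mean of the 20 markers was -0.021, 0.043 and -0.023 in controls and -0.050, -0.18 and -0.17 in treated animals. One dim marker, Slc22a7, varied widely within both groups. Without it, an alternative chosen after seeing the data, the other 19 averaged 0.046, -0.038 and -0.0079 in controls and -0.11, -0.11 and -0.13 in treated animals. The part of this shift in the differences of the fatty acid oxidation genes was not tested.

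Markers of the distal tubule and the collecting duct also averaged lower in treated animals. Those of the distal tubule, 3 genes, averaged 0.054, -0.20 and 0.15 in controls and -0.35, -0.52 and -0.34 in treated animals. These 3 genes had no common direction. S100g, a calcium-binding protein, fell by 0.87 on the log2 scale (limma adjusted p = 0.0442). Calb1 differed by -0.49 (adjusted p = 0.172) and Slc12a3 by 0.15 (adjusted p = 0.531), both with overlapping groups. Collecting duct markers, 8 genes with 0 called by limma and 1 lower at an unadjusted p under 0.05, averaged 0.045, -0.092 and 0.046 in controls and -0.18, -0.17 and -0.15 in treated animals. Both lists lay wholly below the controls by this mean, as did the genes in the members' signal range. The summed signals of both lists overlapped, at 24.9 to 31.7 and 25.2 to 29.5 for the distal tubule and 238 to 263 and 206 to 245 for the collecting duct. Of 5 stromal markers, Acta2, smooth muscle actin, was called higher (log2 0.50, adjusted p = 0.0390), and the list averaged from -0.14 to 0.10 in controls and from -0.30 to 0.17 in treated animals. The calls of S100g and Acta2 were lost when any 1 array was left out, though most of those fits called 0 genes of all. The part of these lists in the members' differences was not tested.

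Red cell markers had higher means in treated animals. All 6 tested had every treated value above every control, with a median of 1.24 and summed signals of 435 to 569 in controls and 667 to 1027 in treated animals; limma called 0 of them, with 6 higher at an unadjusted p under 0.05. Adipocyte markers, which would show attached fat, had a median of -0.16 over 4 genes, and their summed signal of 1.28 to 1.72 in controls and 1.13 to 1.45 in treated animals overlapped. The part of these cells in the members' differences was not tested.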

How the data were processed

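Signals were extracted with Agilent Feature Extraction, version 10.7.1.1 per the file headers and 10.7 in the submitters' processing notes; the array design refers to rat build rn4. The deposited intensity used here is a background-subtracted, detrended Cy3 signal, not scaled between arrays. The authors' deposited value table holds a linear ratio of that signal to each array's 75th percentile (median quotient 0.998 against the scanner values); column medians ran from 0.105 to 0.109 in controls and from 0.108 to 0.110 in treated animals. That its scale is linear and uncentred was read from this match.

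The 1 to 3 outlier spots of an array were left out, and none was saturated. A RefSeq gene table of GRCr8 named 28206 probes by unversioned accession; no gene coordinates are given because rn4 and GRCr8 differ. A probe was kept if it was well above background throughout 1 group or both, a gene was represented by its probe of highest mean, and 12130 genes were fitted with limma 3.58.1 (R 4.3.3; prior degrees of freedom 1.77), with Benjamini-Hochberg adjustment over all of them and a threshold of 0.05. The fit was tested on simulated data.

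Values are given in all animals for the 3 members with the smallest p in each of 6 step lists, for members that differed by at least 0.5 and for members whose probes had both signs; of other pathway lists, called genes or the 2 with the smallest p. Slc25a20, Hadha, Abcd3, Ppara, Ppargc1a and Acaa1b were named in addition after their values were seen. The members and lists were chosen with earlier results of these data known. The normexp alternative (offset 50) used median spot and background signals. Protein sequences were not used here, and some genes of the other pathway lists are not reported here.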

Additional observations from a re-analysis of the deposited data

How the results depend on the processing

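The medians over all members and over mitochondrial members stayed below 0 under each alternative run. So did the medians over all genes tested (-0.064 to -0.021) and over the genes in the members' signal range (-0.11 to -0.032). With a normexp background, 2 members, Crat (-0.34) and Hadhb (-0.30), were called lower, 507 of all genes were called lower, and the peroxisomal median was -0.19. Quantile scaling left 8 members wholly below the controls and 5 lower at an unadjusted p under 0.05. Without a filter on dim probes, 37 genes of all were called higher and 7 were called lower. The mean of a gene's probes gave 229 genes called higher, 63 called lower and 1 member wholly above. An intensity trend gave 395 genes called lower and 1 member called, Hadhb (-0.32). The causes were not tested.

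Deviations of same-numbered animals from their group means correlated at r = -0.12, -0.11 and 0.089, and those of other pairs at -0.088 to 0.21. The deviations of a group sum to 0, so these values cannot settle whether the numbers pair animals. With the replicate number as a block, limma called 0 genes higher and 0 lower, and 8 members were lower at an unadjusted p under 0.05. Leaving out each array gave 0 to 48 genes called higher and 0 to 6 called lower over all genes (0 in both directions without controls 1 or 3, or treated animals 2 or 3). It gave 0 members called, and 5 to 11 members lower at an unadjusted p under 0.05.

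Members near 0 changed sign: Echs1 (-0.059), Scp2 (0.0055) and Phyh (-0.034) with normexp, Acat1 (0.0054), Scp2 (0.050) and Pecr (0.040) with quantile scaling, Phyh (-0.023) with median scaling and Acat1 (0.0012) with the mean of probes. Leaving out 1 array at a time gave -0.014 to 0.11 for Echs1, -0.10 to 0.0096 for Acat1, -0.27 to 0.056 for Acot2, -0.060 to 0.037 for Scp2, -0.053 to 0.050 for Pecr and -0.024 to 0.057 for Phyh. Slide and scan could not enter the fit as a block, since each held 1 group. The number of arrays limits what can be called.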

Other observations

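Outside the members, some genes of fatty acid handling had larger differences that did not pass and were singled out after their values were seen. Acsm3, a medium-chain acyl-CoA synthetase, read 2.64, 3.83 and 2.00 in controls and 4.96, 3.65 and 4.06 in treated animals, with overlapping groups (log2 1.40, SE 0.55, limma adjusted p = 0.192). The acyl-CoA thioesterases Acot7, Acot1 and Acot4 had differences of -0.57, -0.39 and -0.38 (adjusted p = 0.149, 0.177 and 0.150), each with every treated value below every control. Klf15, a transcription factor of nutrient metabolism, had levels of 3.52, 3.44 and 3.16 in controls and 3.81, 3.85 and 3.59 in treated animals (log2 0.38, SE 0.12, adjusted p = 0.132), also without overlap.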
